A study of Mus musculus with 16 samples.

Results

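The genes described here are 39 interferon-stimulated genes, transcripts that rise when a cell receives an interferon signal. They were taken as a list of named genes, from the antiviral effectors Mx1, Oas1a and Isg15 to the antigen-processing genes Tap1, Psmb8 and Psmb9, and no threshold on values from these lungs entered the rule. All 39 had at least 1 named spot on the array among 20863 named genes, and all 39 passed the filter on dim genes that left 20304 genes for testing. For the 12 members with several spots, the brightest spot on average was used.

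The lungs came from C57BL/6 mice of 9 to 12 weeks. Each had received an oligonucleotide into the trachea 4 and 2 days before, and again 4 days after, an intratracheal dose of bleomycin (1 unit/kg) or of phosphate-buffered saline (PBS). The oligonucleotide was a CAV1 target site blocker (5 mg/kg), which covers a microRNA binding site in the Cav1 transcript, or a control blocker whose dose the labels do not give. Whole-lung RNA was read on 1 single-colour Agilent array per sample, with 2 arrays for PBS and the control blocker, 2 for PBS and the CAV1 blocker, 6 for bleomycin and the control blocker and 6 for bleomycin and the CAV1 blocker. The 4 groups share the strain, and all received an oligonucleotide, so no lung was without one. The labels do not state that each sample is a separate animal, and each p-value therefore reflects sample-to-sample spread, which may be technical.

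Interferons of the alpha and beta type bind the receptor pair Ifnar1 and Ifnar2, and signalling from that receptor brings a complex that includes Stat2 and Irf9 to a DNA element called the interferon-stimulated response element (ISRE). Interferon gamma uses a separate receptor and acts through the GAS element. Many of the induced proteins block a step of viral growth or sense viral nucleic acid, and others present antigen or damp the signal. In the lung they are known from infection and from tissue injury, where bleomycin breaks DNA, kills cells and draws in monocytes. C57BL/6 mice carry alleles of Mx1 and Mx2 that make no functional protein, so for those genes the arrays report the transcript only.

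The ISRE carries a pair of GAAA blocks with any 2 bases between them, and the members' promoters were searched for GAAANNGAAA on both strands, where overlapping matches were each counted. RefSeq promoters (GRCm38.p6) were at hand for 30 of the 39 members. In the 250 bases before the transcript start, 13 of these 30 genes (43.3%) held a match, against 3.42% of the 26995 other genes in the table. Counted by promoter, 13 of the members' 37 promoters (35.1%) held one, against 2.98% of all 32851 promoters. The windows below belong to the 8 of those members with the smallest p for bleomycin averaged over both blockers, and they are shown because they are the letters through which the shared signal is known to act. Capitals mark each match, and a match on the opposite strand reads as the reverse complement TTTCNNTTTC. Each window is written 5′ to 3′ along the gene's own strand.
Oas1a: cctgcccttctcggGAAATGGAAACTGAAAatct
Isg15: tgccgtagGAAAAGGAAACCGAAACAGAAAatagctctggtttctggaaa
Ifit1: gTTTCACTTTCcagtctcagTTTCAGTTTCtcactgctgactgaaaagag
Gbp2: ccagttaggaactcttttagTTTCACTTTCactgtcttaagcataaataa
Bst2: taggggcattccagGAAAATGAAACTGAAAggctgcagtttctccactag
Gbp5: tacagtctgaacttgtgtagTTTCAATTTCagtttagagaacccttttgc
Gbp3: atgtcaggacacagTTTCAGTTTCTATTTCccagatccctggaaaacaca
Stat2: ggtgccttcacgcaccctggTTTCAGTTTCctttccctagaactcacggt

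The Oas1a window lies at chr5:120907526-120907559 on the minus strand, and holds 2 overlapping matches; the start used for Oas1a lies inside the longest RefSeq gene model. That of Isg15 (chr4:156200855-156200904, minus strand) holds 3 overlapping matches in 1 run. In Ifit1 (chr19:34640784-34640833, plus strand) the window holds 2 separate matches, the nearer one from 85 to 76 bases before the start. The Gbp2, Gbp5 and Gbp3 windows lie close together on the same chromosome, at chr3:142620584-142620633, chr3:142496749-142496798 and chr3:142559985-142560034, all on the plus strand. Bst2 (chr8:71537567-71537616, minus strand) holds 2 overlapping matches and Stat2 (chr10:128270256-128270305, plus strand) holds 1, the farthest from its start of the 8.

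The other members with a match were Ifit3, Rsad2, Oas3, Trim30a and Oas1g. For 17 members, Irf1, Irf7, Irf9, Oasl1, Oasl2, Tap1 and Xaf1 among them, these letters did not occur in the window, which says nothing of sites elsewhere. The GAS-type letters TTCNNNGAA, a search added after the data had been seen, occurred in 7 of the 30 genes (23.3%) against 8.11% of the other genes. The genes were Irf1, Oas1a, Ifit2, Isg20, Bst2, Gbp5 and Psmb8, and in Bst2 a GAS-type match overlapped an ISRE-type match. A match is a string of letters and not a measured binding site, and no binding was measured in these lungs.

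**Figure D1:**
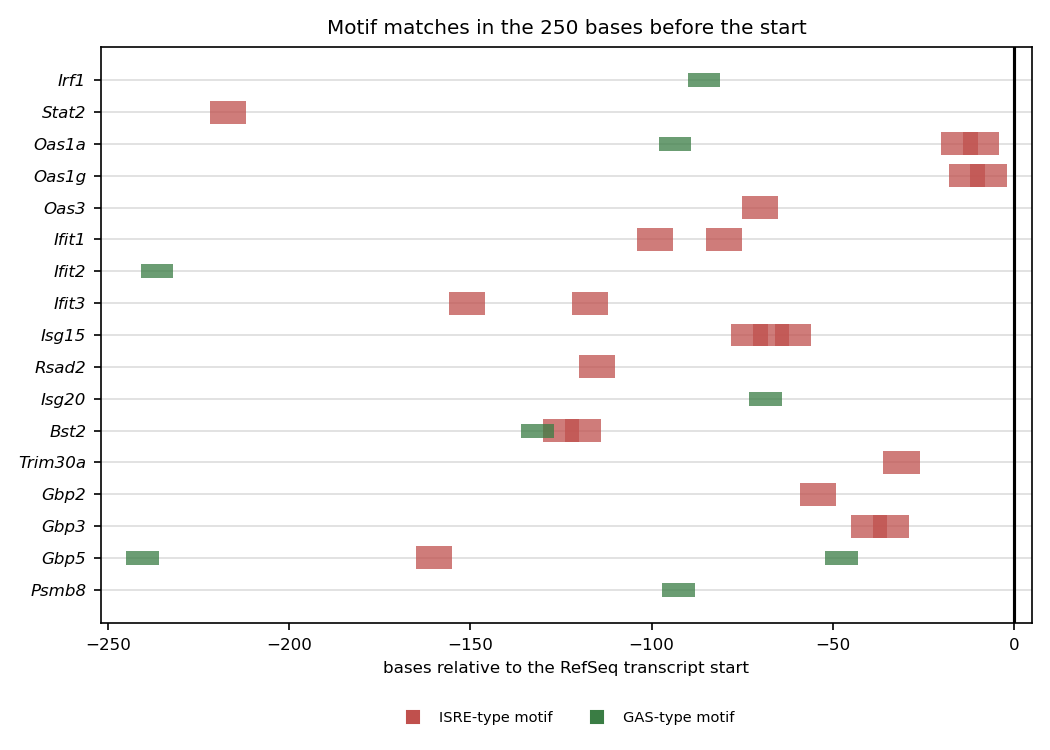
Positions of ISRE-type (red) and GAS-type (green) matches in the 250 bases before the RefSeq start, for the members that hold any; the x axis is the distance in bases from the start. Oas1a and Oas1g hold their ISRE-type matches next to the start, Isg15, Gbp2 and Gbp3 within 78 bases of it, and Stat2 at least 213 bases away.

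The deposited values are log2 signals whose median was 6.51 to 6.52 in every array. Oas1g was the 1 member below that median, in all 16 arrays, with a mean of 5.95, so its changes are measured near the dim end. Oas1a and Oas1g are close paralogs, and so are the Ifit genes, and their spots may share signal. A set of 5 arrays was low in skeletal muscle transcripts, with a list mean of 7.14 to 8.40 against 10.13 to 12.59 in the other 11, namely the PBS pair with the CAV1 blocker, arrays 2 and 6 of bleomycin with the control blocker and array 3 of bleomycin with the CAV1 blocker. PBS control-blocker array 2 and bleomycin CAV1-blocker array 6 deviated from their groups together (r = 0.693 across genes, which are not independent replicates). In a group of 2 the deviations mirror each other, so r was -0.693 with PBS array 1, and which PBS array stands apart cannot be told. The highest r between groups was 0.810, for bleomycin control-blocker array 6 and bleomycin CAV1-blocker array 3, both low in muscle. For 33 of the 39 members the first pair deviated in the same direction. That pair was singled out after the data had been seen, and the share over all genes was not computed. Among these, 11 members were higher in both arrays, such as Irf7, Tap1, Ifitm3 and Oas3, and 22 were lower in both, such as Rtp4, Oasl1, Gbp5 and Mx1. An RNA integrity number of 10 was given for arrays 1 and 5 of the bleomycin control-blocker group, and 9 for the rest.

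**Figure D2:**
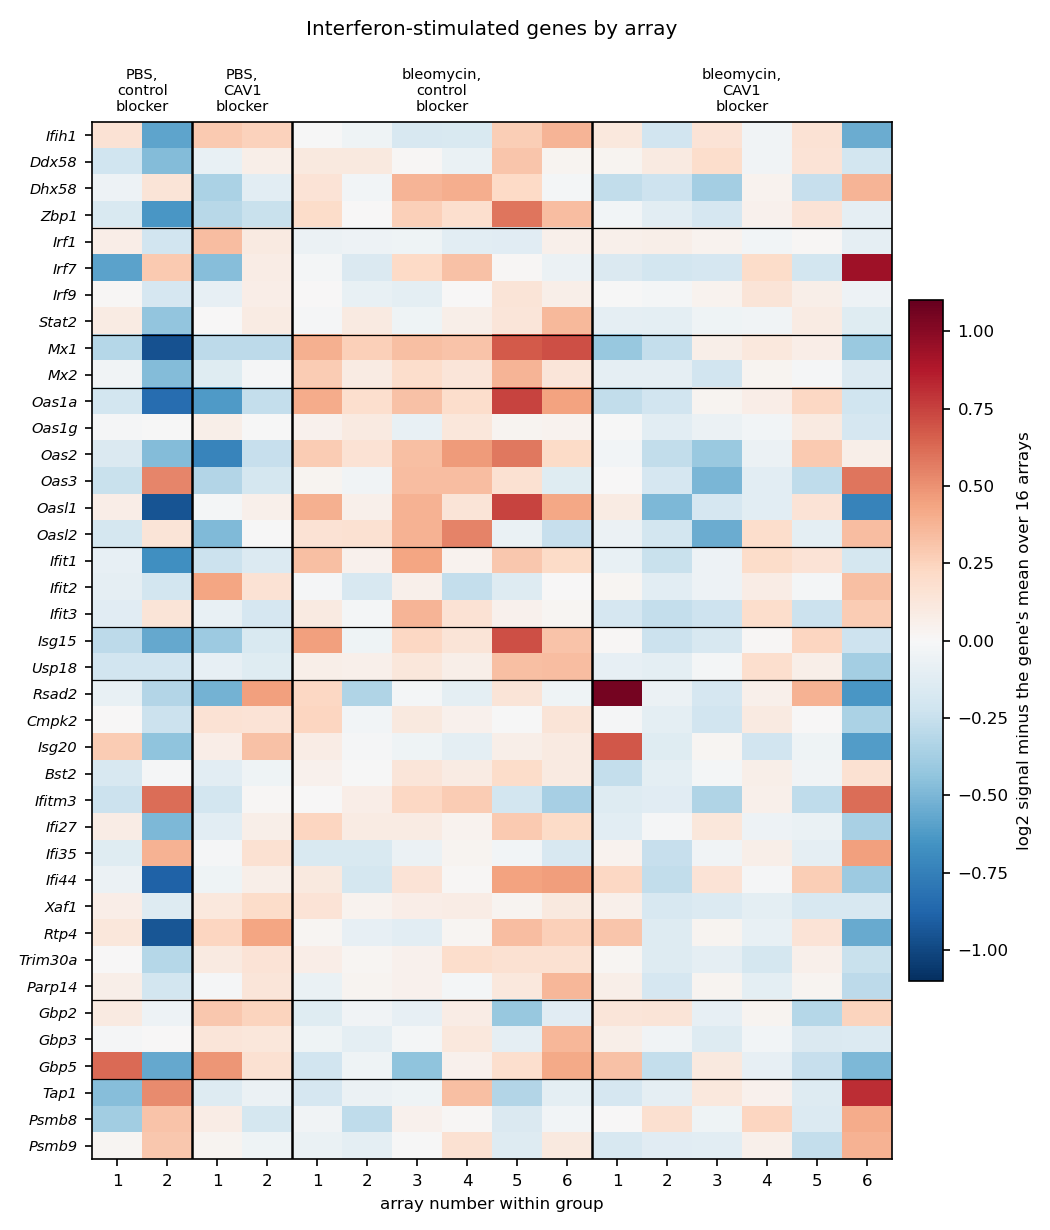
Each row is a member, ordered by role with lines between roles, and each column is 1 array, grouped by treatment; colour gives the log2 signal minus that gene's mean over the 16 arrays. Mx1, Oas1a, Oas2, Zbp1 and Isg15 are red across the 6 bleomycin control-blocker arrays, apart from Zbp1 and Isg15 in array 2, while Irf7 and Tap1 stand out in bleomycin CAV1-blocker array 6.

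Bleomycin was first compared with PBS under the control blocker, which asks how the injured lung differed without the CAV1 blocker. In this comparison 5 of the 39 members rose and none fell, where 1.96% of all genes tested rose. The 5 were Mx1, Mx2, Oas1a, Zbp1 and Isg15, and the rises lay between 0.46 and 1.08 on the log2 scale. Among the 39 members 31 lay above 0, and the median change was 0.18, against 0.030 over all genes, of which 56.4% lay above 0. At an unadjusted p under 0.05, 14 members were higher and 0 lower in limma, and 10.5% of all genes were higher. In 11 members every bleomycin array lay above both PBS arrays, where 8.55% of all genes did so.

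Mx1, a GTPase that traps viral ribonucleoproteins in strains where it works, gave 8.61 and 7.97 in the PBS control-blocker arrays and 8.64 in each PBS CAV1-blocker array. Bleomycin control-blocker arrays ran from 9.18 through a median of 9.29 to 9.63, and bleomycin CAV1-blocker arrays from 8.51 through 8.83 to 9.04. All 6 bleomycin control-blocker arrays thus lay above every other array of the study for this gene. With the control blocker, bleomycin raised Mx1 by 1.08 (log2, SE 0.186, adjusted p = 0.0166 in limma). The related gene Mx2 gave 8.55 and 8.12 in the PBS control-blocker arrays, 8.46 and 8.58 in the PBS CAV1-blocker arrays, 8.68, 8.76 and 8.97 (lowest, median, highest) after bleomycin with the control blocker, and 8.38, 8.50 and 8.62 with the CAV1 blocker. Its rise under the control blocker was 0.46 (SE 0.110, adjusted p = 0.0427).

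Oas1a belongs to the family that senses double-stranded RNA and makes the messenger that activates RNase L. It gave 11.88 and 11.24 in the PBS control-blocker arrays and 11.45 and 11.82 in the PBS CAV1-blocker arrays. After bleomycin its lowest, median and highest values were 12.26, 12.44 and 12.82 with the control blocker, and 11.81, 11.99 and 12.31 with the CAV1 blocker. The control-blocker groups did not overlap, and Oas1a rose by 0.90 (SE 0.183, adjusted p = 0.0237). Its second spot gave 0.49 in the same comparison. Oas2, of the same family, gave 10.62 and 10.30, then 10.05 and 10.53 in the PBS groups with the control and the CAV1 blocker, 10.94, 11.08 and 11.35 after bleomycin with the control blocker, and 10.37, 10.73 and 11.07 with the CAV1 blocker. The Oas2 groups also did not overlap under the control blocker, and the change of 0.66 missed the threshold (SE 0.171, adjusted p = 0.0586).

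Zbp1, a sensor of Z-form nucleic acid that can start cell death, gave 9.19 and 8.72 in the PBS control-blocker arrays and 9.06 and 9.11 in the PBS CAV1-blocker arrays. Its bleomycin arrays ran through 9.36, 9.59 and 9.95 (lowest, median, highest) with the control blocker and 9.17, 9.29 and 9.51 with the CAV1 blocker. Zbp1 was thus above both PBS arrays of the same blocker in all 12 bleomycin arrays, and under the control blocker it rose by 0.67 (SE 0.142, adjusted p = 0.0274), with 0.42 at its second spot. Isg15, a ubiquitin-like protein that is attached to other proteins, gave 12.68 and 12.40, then 12.57 and 12.80 in the PBS groups with the control and the CAV1 blocker, 12.92, 13.24 and 13.67 after bleomycin with the control blocker, and 12.73, 12.88 and 13.20 with the CAV1 blocker. The rise under the control blocker was 0.72 (SE 0.169, adjusted p = 0.0382), with 0.64 at the second spot. Bleomycin control-blocker array 5 was the highest of its group for Oas1a, Oas2, Zbp1, Isg15 and Mx2, and it held the highest value for 11 of the 39 members.

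**Figure D3:**
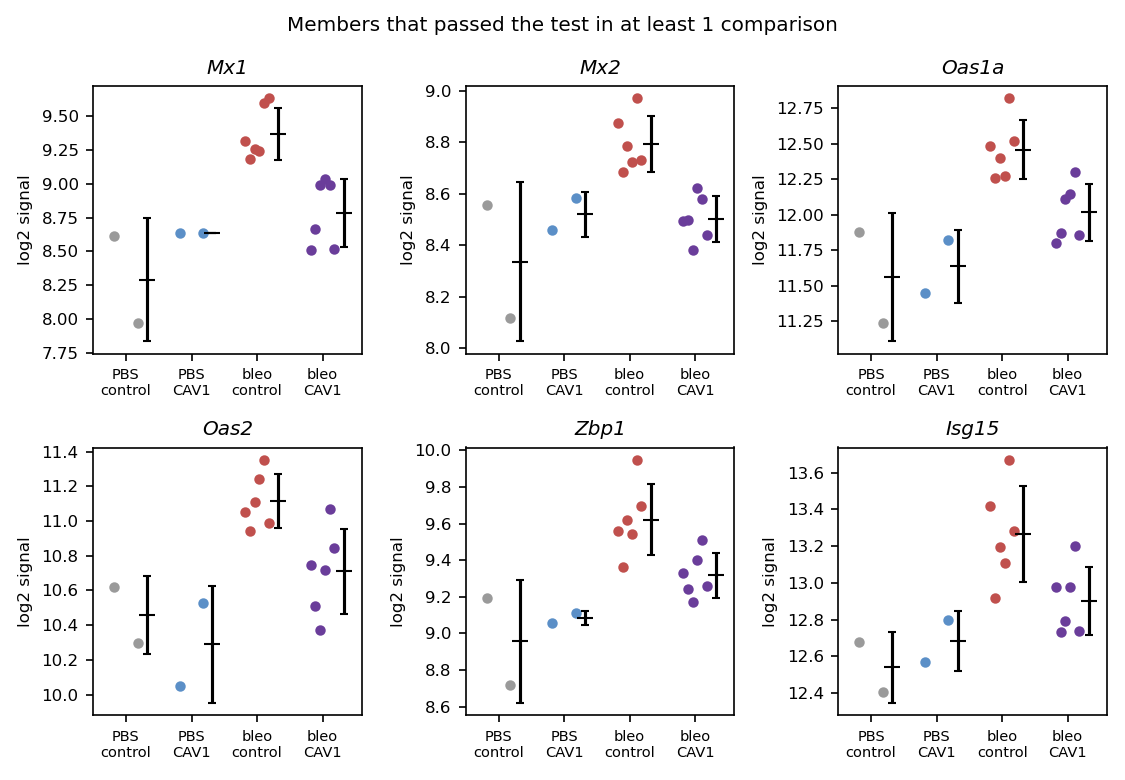
Log2 signal of the 6 members that passed the test in at least 1 comparison; each point is 1 array, and the bar beside each group gives the mean and the SD (n = 2 for the PBS groups and 6 for the bleomycin groups). For all 6, the bleomycin control-blocker arrays lie above both PBS control-blocker arrays, and for Mx1 and Mx2 they also lie above every bleomycin CAV1-blocker array. The y axes do not start at 0 and differ between panels.

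The remaining members did not pass the test under the control blocker, and the roles differed in their medians. The Ifit genes, which bind foreign RNA ends, held Ifit1 just short of a call, with 0.61 (adjusted p = 0.0510), and Ifit2 and Ifit3 near 0 with 0.060 and 0.11. Usp18, which removes Isg15 and damps the receptor, gave 0.38 (adjusted p = 0.137), and Ddx58, the RNA sensor RIG-I, gave 0.43 (adjusted p = 0.0694), while the second spot of Ddx58 gave -0.015. The 4 transcription factors Irf1, Irf7, Irf9 and Stat2 lay between 0.0080 and 0.27. Of the 12 other effectors 10 lay above 0, from Ifi44 with 0.64 down to Ifi35 with -0.22. The guanylate-binding genes Gbp2, Gbp3 and Gbp5, classical targets of interferon gamma, had a median of -0.037, and the antigen-processing genes Tap1, Psmb8 and Psmb9 a median of -0.094. In both of these groups 0 members passed in any of the 6 comparisons in limma, and 0 of the 6 genes reached an unadjusted p under 0.05 in this one.

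These calls rest on the pair of PBS control-blocker arrays. In array 2 of that pair 25 of the 39 members were lower than in array 1. Without array 2 the calls were not kept, and Mx1 gave 0.76. Without array 1, 14 members were called, where 20.1% of all genes were called in either direction. Leaving out bleomycin control-blocker array 1 left 1 member called, where 0.729% of all genes were called in either direction. Leaving out array 3, 5 or 6 of bleomycin with the control blocker left 3 (1.52%, 1.22% and 1.64% of all genes). Leaving out array 2 or 4 of bleomycin with the CAV1 blocker left 3 as well (1.37% and 1.84%). Fewer members were also called without either PBS array with the CAV1 blocker, which leaves 1 array in that group. The monocyte and macrophage list moved with the members: its mean log2 signal was 11.20 and 11.17 in the PBS control-blocker arrays and 11.75 to 11.90 in the bleomycin control-blocker arrays, 4 of its 9 genes rose (Ms4a7, Fcgr1, Adgre1 and Cx3cr1) and none fell. The list's Itgam and Lyz2 lay below 0, with -0.47 (adjusted p = 0.288, lower at an unadjusted p under 0.05) and -0.15. With that list mean as a covariate, chosen after the data had been seen, 0 members and 2 of all 20304 genes were called in limma. The median member change was 0.32, and Mx1 gave 0.66 (adjusted p = 0.879). The PBS and bleomycin ranges of the list mean did not overlap, so this fit hardly separates the list from bleomycin. In whole lung, more cells of a type and more RNA per cell cannot be told apart. The plasmacytoid dendritic cell list, a source of interferon alpha, had 0 of 6 genes called in limma, with a median change of -0.56 and 3 genes lower at an unadjusted p under 0.05. All 12 skeletal muscle genes and all 10 genes of stratified squamous epithelium also lay below 0 here, with medians of -1.65 and -0.84. The bearing of such tissue on that list was not tested. Leaving out the 2 arrays with an RNA integrity number of 10 also left 0 members called, with Mx1 at 1.04 (adjusted p = 0.0752), and so did leaving out the 5 arrays low in muscle, with Mx1 at 1.06 (adjusted p = 0.0815). With array weights 0 members and 0 of all genes were called.

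Under the CAV1 blocker the same comparison of bleomycin with PBS gave 0 members called in limma, where 0.345% of all genes rose and 0.172% fell. Of the 39 members 19 lay above 0 and 20 below, the median was -0.014 against -0.0057 over all genes, and at an unadjusted p under 0.05 1 member was higher and 5 were lower, with 7.15% of all genes higher, 7.67% lower and 48.8% above 0. Of the 5 members called under the control blocker, Mx1 changed by 0.15 (95% interval -0.25 to 0.54), Mx2 by -0.019 (-0.25 to 0.22), Zbp1 by 0.23 (-0.067 to 0.54), Isg15 by 0.22 (-0.14 to 0.58) and Oas1a by 0.38 (-0.010 to 0.77). Oas2 was the member higher at an unadjusted p under 0.05, with 0.42 (adjusted p = 0.253). Skeletal muscle markers differed here too. Their list mean was 7.14 and 7.43 after PBS, and after bleomycin 7.52 in array 3 and 10.13 to 11.39 in the rest. All 12 muscle genes and all 10 of stratified squamous epithelium lay above 0, with medians of 2.60 and 3.20. With the muscle mean as a covariate 14 members lay above 0 and 25 below, with a median of -0.059 and 0 called in limma. What part such tissue had in these changes was not otherwise tested.

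Without that covariate, the 5 members lower at an unadjusted p under 0.05 were Xaf1, Irf1, Trim30a, Cmpk2 and Ifit2, and none passed the test. Xaf1, a partner of an apoptosis inhibitor, gave 11.84 and 11.93 in the PBS CAV1-blocker arrays and 11.55, 11.57 and 11.78 (lowest, median, highest) in the bleomycin CAV1-blocker arrays. With the control blocker it gave 11.80 and 11.59 after PBS and 11.76, 11.80 and 11.87 after bleomycin. The CAV1-blocker groups did not overlap for Xaf1, and the difference was -0.28 (SE 0.0816, adjusted p = 0.121). Without bleomycin CAV1-blocker array 1, Xaf1 passed the test with -0.32 (adjusted p = 0.0327), where 3.54% of all genes were called in either direction. Trim30a, a tripartite motif protein that damps innate signalling, gave 9.86 and 9.92 after PBS and 9.52, 9.64 and 9.82 after bleomycin with the CAV1 blocker. Its control-blocker values were 9.77 and 9.45 after PBS and 9.78, 9.88 and 9.95 after bleomycin. Trim30a thus lay above both PBS arrays in every bleomycin array under one blocker and below both under the other, with changes of 0.26 (adjusted p = 0.195) and -0.23 (adjusted p = 0.298).

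Irf1, a transcription factor shared by both interferon pathways, gave 13.74 and 13.50 in the PBS CAV1-blocker arrays and 13.31, 13.44 and 13.47 after bleomycin with that blocker, a difference of -0.21 (adjusted p = 0.290). It stayed in the same range with the control blocker, at 13.48 and 13.20 after PBS and 13.29, 13.35 and 13.47 after bleomycin. Cmpk2, a mitochondrial nucleotide kinase whose gene lies beside Rsad2, gave 9.61 and 9.60, then 9.10, 9.39 and 9.54, a difference of -0.25 (adjusted p = 0.304). With the control blocker the Cmpk2 values were 9.45 and 9.21, then 9.42, 9.52 and 9.68. In 6 members, Irf1, Cmpk2, Xaf1, Trim30a, Gbp3 and Ifih1, every bleomycin array lay below both PBS arrays of the CAV1 blocker, as did 12.3% of all genes.

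**Figure D4:**
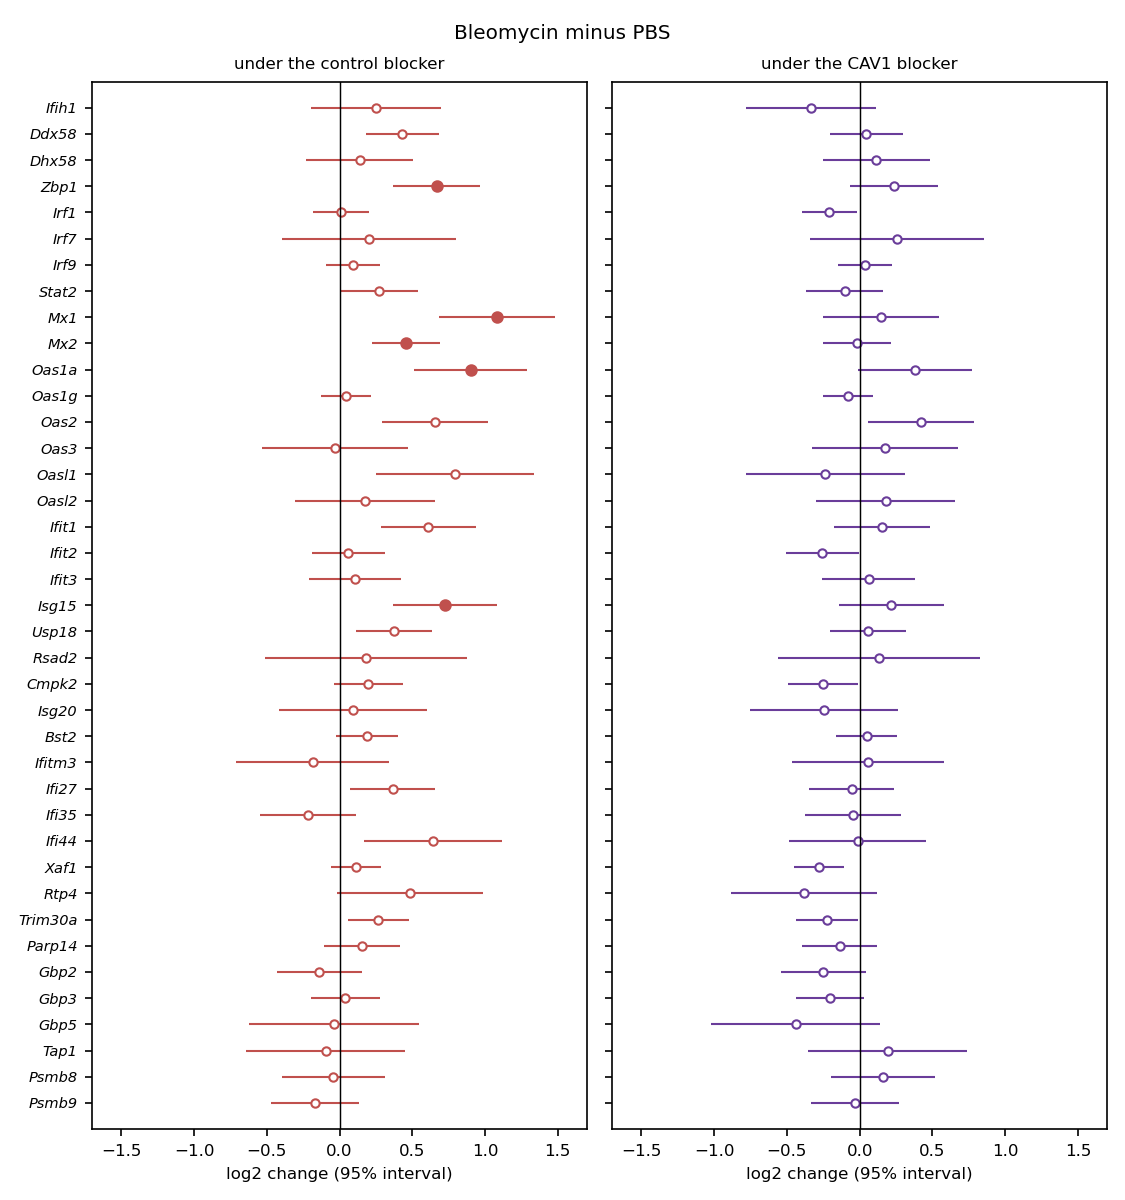
Change of each member with bleomycin (bleomycin minus PBS, log2) under the control blocker (left) and the CAV1 blocker (right), with 95% confidence intervals from limma; filled points passed the test at an adjusted p under 0.05. The 5 filled points, Zbp1, Mx1, Mx2, Oas1a and Isg15, are all in the left panel, and the right panel holds none.

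Averaged over both blockers, a comparison that uses all 4 PBS arrays, 5 members rose and none fell, where 4.25% of all genes rose. Oas1a rose by 0.64 (SE 0.129, adjusted p = 0.00907), Mx1 by 0.61 (SE 0.132, adjusted p = 0.0121), Oas2 by 0.54 (SE 0.121, adjusted p = 0.0154), Isg15 by 0.47 (SE 0.119, adjusted p = 0.0298) and Zbp1 by 0.45 (SE 0.100, adjusted p = 0.0148). Of the 39 members 26 lay above 0, with a median of 0.072 against 0.0066 over all genes, of which 51.9% lay above 0. At an unadjusted p under 0.05, 9 members were higher and 0 lower in limma, and 10.3% of all genes were higher. Fewer members were called after leaving out array 2 of PBS with the control blocker, or either PBS array with the CAV1 blocker. More were called after leaving out array 1 of PBS with the control blocker. The number of all genes called differed between these fits as well, and each fit left 1 array in a PBS group. Without PBS control-blocker array 1 or 2 the median member change was 0.093 or 0.098, and Oas1a gave 0.48 without array 2. Without array 1 or 2 of PBS with the CAV1 blocker the median was 0.040 or 0.10. Fits with array weights, and with the monocyte and macrophage list mean as a covariate, called 0 members in limma. Of the 9 genes of that list 8 lay above 0 in this comparison, and Ms4a7, Fcgr1 and Adgre1 rose.

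The CAV1 blocker was then compared with the control blocker after bleomycin, the comparison with 6 arrays on each side. Mx1 fell, and it was the 1 member of 39 called, where 0.414% of all genes fell. Of the 39 members 30 lay below 0, with a median of -0.15 against -0.011 over all genes, of which 45.6% lay above 0. At an unadjusted p under 0.05, 14 members were lower and 0 higher in limma, and 4.60% of all genes were lower. The bleomycin control-blocker arrays of this comparison are the same ones as in the first, so the lower values here and the rises there are not separate evidence.

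Mx1 fell by 0.59 on the log2 scale (SE 0.132, adjusted p = 0.0327), and its 6 arrays with the CAV1 blocker all lay below its 6 with the control blocker. Mx2 was the other member without overlap, with a change of -0.29 (SE 0.0779, adjusted p = 0.0934), where 0.832% of all genes were as separate in that direction. Next by p came Xaf1 with -0.20 (adjusted p = 0.130), Oas1a with -0.44 (adjusted p = 0.144), Oas2 with -0.41 (adjusted p = 0.159) and Oasl1 with -0.57 (adjusted p = 0.198). Isg15 gave -0.36 and Zbp1 -0.30, and their second spots gave -0.31 and -0.27. The Oas family lay below 0 in 6 of 6 genes and the nucleic acid sensors in 4 of 4, whereas Irf1, Irf7 and Irf9, Ifit2, Rsad2, Ifi35, Gbp2, Tap1 and Psmb8 lay above 0. Second spots lay above 0 for Ifih1 (0.23), Xaf1 (0.063) and Isg20 (0.11), whose spots used here lay below. Those of Oas1a, Cmpk2, Ddx58 and Oas1g stayed below 0, from -0.34 to -0.026.

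Oasl1, an Oas-like protein that restrains translation of Irf7, had the second most negative change. It gave 10.17 and 9.14 after PBS with the control blocker, 10.07 and 10.15 after PBS with the CAV1 blocker, 10.15, 10.48 and 10.83 after bleomycin with the control blocker, and 9.35, 9.94 and 10.24 with the CAV1 blocker. The bleomycin groups overlapped, since the highest CAV1-blocker value lay above the lowest control-blocker value. Bleomycin CAV1-blocker array 6 held the lowest value of its group for 17 members and the highest for 13.

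The call of Mx1 was kept in 7 of the 16 fits that each left out 1 array. Its change stayed between -0.64 and -0.53 in these fits, with an adjusted p from 0.0120 to 0.0896. The arrays whose absence ended the call were the PBS pair with the CAV1 blocker, arrays 1, 3, 5 and 6 of bleomycin with the control blocker, and arrays 1, 2 and 6 of bleomycin with the CAV1 blocker. Without bleomycin CAV1-blocker array 1, Xaf1 passed in place of Mx1, with -0.24 (adjusted p = 0.0407), where 1.44% of all genes were called in either direction. The fits that left out 1 bleomycin array called from 1.23% to 1.51% of all genes. Markers of monocytes and macrophages moved the same way: 8 of 9 genes of that list lay below 0, 2 fell (Ms4a7 and Itgam), and the list mean was 10.97 to 11.55 with the CAV1 blocker against 11.75 to 11.90 with the control blocker. The list mean did not overlap between the blockers, so a fit with it as covariate hardly separates the list from the blocker. In that fit, chosen after the data had been seen, Mx1 changed by -0.31 (adjusted p = 0.983 in limma). The part of these cells in the result was not tested.

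**Figure D5:**
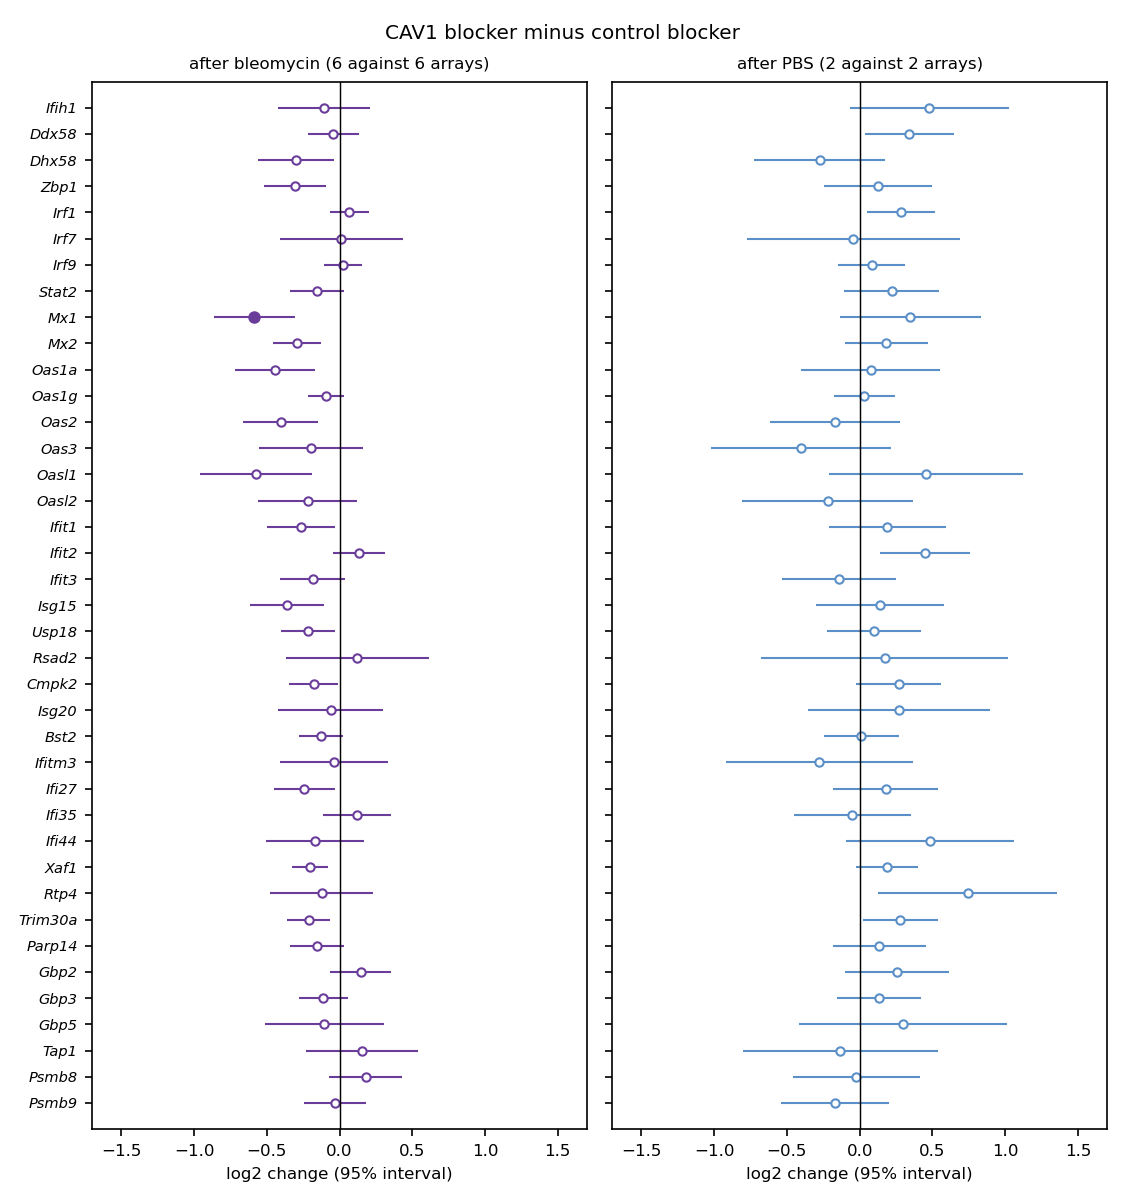
Change of each member with the CAV1 blocker (CAV1 blocker minus control blocker, log2) after bleomycin (left) and after PBS (right), with 95% confidence intervals from limma; filled points passed the test at an adjusted p under 0.05. Mx1 is the 1 filled point, 30 of 39 members lie below 0 on the left, and 28 of 39 lie above 0 on the right, with wider intervals from 2 arrays a group.

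After PBS, where each blocker had 2 arrays, 0 members were called in limma, and 0.276% of all genes were higher with the CAV1 blocker. Of the 39 members 28 lay above 0, with a median of 0.14 against 0.036 over all genes, and at an unadjusted p under 0.05, 5 were higher and 0 lower. Of all genes 56.0% lay above 0, and at that p 8.26% were higher and 4.55% lower. In 13 members both CAV1-blocker arrays lay above both control-blocker arrays, where 23.7% of all genes did so. Ifit2, which binds foreign RNA, gave 9.31 and 9.03 with the CAV1 blocker against 8.77 and 8.67 with the control blocker, a difference of 0.45 (SE 0.145, adjusted p = 0.301). After bleomycin it gave 8.61, 8.80 and 8.93 with the control blocker and 8.76, 8.87 and 9.21 with the CAV1 blocker, so the 2 PBS CAV1-blocker arrays were among its higher values.

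Rtp4, an interferon-induced chaperone of receptors, gave 12.79 and 12.98 after PBS with the CAV1 blocker against 12.67 and 11.61 with the control blocker, a difference of 0.74 (SE 0.288, adjusted p = 0.370). Its low value was again that of PBS control-blocker array 2. After bleomycin Rtp4 lay at 12.43, 12.57 and 12.89 with the control blocker and at 12.00, 12.52 and 12.85 with the CAV1 blocker. Ddx58 gave 11.48 and 11.62 after PBS with the CAV1 blocker, 11.34 and 11.08 with the control blocker, 11.48, 11.62 and 11.87 after bleomycin with the control blocker and 11.35, 11.62 and 11.75 with the CAV1 blocker. The difference after PBS was 0.34 (adjusted p = 0.384), and Irf1 and Trim30a, whose values stand above, gave 0.28 each (adjusted p = 0.370 and 0.386). Skeletal muscle markers also differed between these groups, at 12.59 and 10.21 with the control blocker and 7.14 and 7.43 with the CAV1 blocker, and with that list mean as a covariate 30 members lay above 0, with a median of 0.22 and 0 called in limma. Without PBS control-blocker array 1, 8 members were called higher, where 19.8% of all genes were called in either direction, and without array 2 none was, where 0.827% were.

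The difference between the bleomycin effects under the CAV1 and the control blocker was tested as an interaction. In limma 0 members were called, and 0% of all genes were called lower. Of the 39 members 31 lay below 0, with a median of -0.32 against -0.048 over all genes, of which 43.4% lay above 0. At an unadjusted p under 0.05, 11 members were lower in limma, as were 6.01% of all genes. Mx1 gave -0.93 (95% interval -1.49 to -0.37), Trim30a -0.49, Xaf1 -0.39, Mx2 -0.48 and Oasl1 -1.03, each with an adjusted p of 0.497. A smaller bleomycin effect on the members under the CAV1 blocker therefore did not pass the test, and the intervals of Mx1, Mx2, Trim30a, Xaf1 and Oasl1 did not include 0 before adjustment. Without PBS control-blocker array 1 the median member change was -0.39, and without array 2 it was -0.18. Each of these fits left 1 array in that group. All 12 skeletal muscle genes and all 10 genes of stratified squamous epithelium lay above 0 in the interaction, with medians of 4.28 and 4.04. With the muscle list mean as a covariate 34 members lay below 0, with a median of -0.35 and 0 called in limma.

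The interferon ligands had 0 of 14 tested genes called with bleomycin under either blocker in limma, and 0 reached an unadjusted p under 0.05. Ifnb1, the beta interferon, changed by 0.031 under the control blocker, at group means from 5.83 to 5.96, near the dim end of the array, and Ifng, the gamma interferon, by 0.16. Ifnk, the kappa interferon of epithelium, was higher with the CAV1 blocker after bleomycin by 0.61 (SE 0.123, adjusted p = 0.0165), at 6.97 ± 0.27 (SD, n = 6) against 6.36 ± 0.12 (n = 6). After PBS the difference in Ifnk was 0.92 (SE 0.214, adjusted p = 0.0953 in limma), which did not pass the test. Its signals lay near the array median of 6.51 to 6.52. The 6 receptor genes had 0 called in any comparison in limma, and under the control blocker 0 reached an unadjusted p under 0.05. Among them Ifnar1 gave 0.38 and Ifngr1 0.13 with bleomycin under that blocker.

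Of 9 receptor signalling genes and inhibitors, Socs3, which shuts off cytokine receptor kinases, rose with bleomycin under the control blocker by 0.87 (SE 0.155, adjusted p = 0.0184), from 11.68 ± 0.068 (n = 2) to 12.55 ± 0.21 (n = 6). Averaged over both blockers its rise was 0.72 (adjusted p = 0.00233). Of 19 genes upstream of interferon, Sting1, the adaptor that answers cytosolic DNA, rose by 0.41 averaged over both blockers (adjusted p = 0.0240). Under the control blocker 0 of the 19 were called in limma, where 5 were higher at an unadjusted p under 0.05.

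Among 54 interferon-stimulated genes outside the members, 2 rose with bleomycin under the control blocker and 0 fell. They were the DNA-sensing p200 family genes Ifi211, with 0.87 (SE 0.162, adjusted p = 0.0187), and Ifi204, with 0.65 (SE 0.126, adjusted p = 0.0199). Both fell with the CAV1 blocker after bleomycin, Ifi211 by 0.52 (SE 0.115, adjusted p = 0.0296) and Ifi204 by 0.39 (SE 0.0891, adjusted p = 0.0385), against the same bleomycin control-blocker arrays. The p200 genes are close paralogs whose spots may share signal. Their list median under the control blocker was 0.027, and after bleomycin with the CAV1 blocker -0.029. Averaged over both blockers, 36 of the 54 lay below 0, with a median of -0.061 against 0.0066 over all genes. At an unadjusted p under 0.05, 4 were higher and 7 lower in limma. In that comparison Ifi211, Lgals3bp and Ifi204 rose and Mndal, another p200 gene, fell by 0.31 (adjusted p = 0.0319). Sp110, a nuclear body protein, was higher with the CAV1 blocker after bleomycin by 0.98 (SE 0.168, adjusted p = 0.00433).

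The MHC class I list, which like Tap1, Psmb8 and Psmb9 belongs to antigen presentation, had 1 of 14 genes called after bleomycin, with H2-Q4 higher with the CAV1 blocker by 0.43 (SE 0.0740, adjusted p = 0.00470). After PBS the difference in H2-Q4 was 0.44 (SE 0.128, adjusted p = 0.238 in limma). With bleomycin under the control blocker 0 of these 14 and 0 of the 7 class II genes were called in limma, where 0 and 1 were higher at an unadjusted p under 0.05. The median of the class I list was -0.088 and that of the class II list 0.18.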

How the data were processed

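The authors deposited log2 signal intensities of 16 arrays, made with limma per the submitters' processing notes (version, scanner and background correction not given in the sources used here), and these were used as deposited. Of 62976 spots, 31465 carried 1 gene symbol and 31511 none; RefSeq accessions (GRCm38.p6) matched 29036 and renamed 2933. The spot with the highest mean stood for a gene, and the 20304 genes above the array's 25th percentile in at least 2 arrays were tested. limma 3.58.1 on R 4.3.3 fitted 4 group means to all 16 arrays (lmFit and eBayes, 12 residual degrees of freedom). All p-values are two-sided, with Benjamini-Hochberg adjustment over the 20304 genes, and a call needed an adjusted value under 0.05. The fit was tested on simulated data. The number of arrays limits the precision.

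Members and lists were chosen with earlier results of these data known. Members are given array by array if called in any comparison, or, where a comparison called none, if among its 5 smallest p-values. Of each pathway list, up to 4 called genes are named, otherwise up to 2 with the smallest p, and Ifnb1, Ifng, Ifnar1 and Ifngr1 always. Alternatives covered normalization, filters, spots, moderation, array weights, the arrays in the fit, RNA integrity, muscle, the replicate block, a fold minimum and leaving out each array. Leaving out 2 arrays together and a monocyte and macrophage covariate were added after seeing the data. Where 1 array was left in a PBS group, its spread was taken to be that of the remaining groups. Slide and scan date were not used here.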

Additional observations from a re-analysis of the deposited data

Results flagged for a closer look

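In 78 sets of 6 bleomycin arrays (39 members by 2 blockers), 3 held an array far from the other 5, judged by its gap to the nearest value against the whole range; chance gives about 1 in 20. Irf7 was 9.714 in bleomycin CAV1-blocker array 6, with the next array at 8.983. Tap1 was 10.02 in the same array, with the next at 9.321. Xaf1 was 11.78 in bleomycin CAV1-blocker array 1, with the next at 11.62.

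Trim30a differed between the blockers in the direction of its bleomycin effect. All 6 bleomycin arrays lay above both PBS arrays with the control blocker, and all 6 lay below both with the CAV1 blocker. Taken singly, the first held for 8.55% of all genes and the second for 12.3%, and the share with both was not computed. Trim30a was picked from the 39 members by this pattern, and each PBS group held 2 arrays. The difference of the effects was -0.4897 on the log2 scale, with an adjusted p of 0.497 in limma, so it did not pass the test.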

How the results depend on the processing

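No called member changed sign under any alternative. The number of all genes called also differed between fits, so the counts below do not describe the members alone. Under the CAV1 blocker, for example, 3.54% of all genes were called without bleomycin CAV1-blocker array 1 and 0.0493% without array 5. With bleomycin under the control blocker, 5 members were called. The number was 0 with array weights, 0 with a replicate block, 0 without the arrays low in muscle, 0 without those with an RNA integrity number of 10, 0 without PBS control-blocker array 2 and bleomycin CAV1-blocker array 6 together, 0 with the monocyte and macrophage covariate, 1 with the compared arrays only and 1 at a log2 change of at least 1. Under the CAV1 blocker it was 2 with array weights in place of 0. Averaged over both blockers it was 0 in place of 5 with array weights, the replicate block, the fold minimum and the macrophage covariate, and 2 without the 2 arrays. For the CAV1 blocker after bleomycin, 1 member was called. The number was 2 with the mean of a gene's spots, with the compared arrays only, with the muscle covariate and without the 2 arrays, 3 with array weights, and 0 with the replicate block, the fold minimum, the macrophage covariate, without the low muscle arrays and without the RNA integrity arrays. The median member change moved to 0.32 under the control blocker with the macrophage covariate, to 0.22 (muscle covariate) and 0.037 (without the 2 arrays) for the CAV1 blocker after PBS, and, for the interaction, to -0.24 with the mean of spots, -0.24 with array weights and -0.21 without the 2 arrays. Leaving out each array gave 0 to 14 members called under the control blocker, 0 to 1 under the CAV1 blocker, 0 to 7 averaged, 0 to 2 for the CAV1 blocker after bleomycin, 0 to 8 after PBS and 0 to 14 for the interaction. The medians in that order ran from 0.17 to 0.30, from -0.063 to 0.035, from 0.040 to 0.10, from -0.19 to -0.11, from 0.037 to 0.30 and from -0.39 to -0.18. Same-numbered arrays of different groups showed no consistent common deviation, with correlations from -0.690 to 0.436 over 16 pairs. Their median was 0.038, against -0.011 over 72 pairs with different numbers. The pairs share arrays and are not independent, so this check cannot exclude a pairing. The replicate block was fitted only as an alternative. The low muscle arrays include both PBS CAV1-blocker arrays, so leaving them out could be fitted only for the control-blocker and bleomycin comparisons. With the promoter window extended to 50 bases after the start, the ISRE-type match occurred in 16 of 30 genes (53.3%) against 3.94% of the other genes.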
